A study of Homo sapiens with 6 samples.

Results

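IGFBP3 and IGFBP7, 2 genes of the insulin-like growth factor (IGF) binding protein family, were lower in A375 melanoma cells overexpressing CYGB than in wildtype A375 cells. These 2 genes are described here out of 2778 features in the deposited count table, and were taken from it by gene name. They were selected on their measured counts in this comparison, both being lower in CYGB-OE, so their levels and fold changes are given as a description, with no test. A375 is an established human melanoma line that carries an activating BRAF mutation. CYGB is the gene of cytoglobin, a globin that binds oxygen through its haem group. The groups are untreated A375 cells overexpressing human CYGB (CYGB-OE, n = 3 libraries) and untreated wildtype A375 cells (WT, n = 3 libraries). The labels name no empty-vector control and do not say whether the CYGB-OE cells are 1 clone or a pool, or whether libraries came from separate cultures, so errors and p-values reflect how these libraries vary, possibly for technical reasons alone.

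The binding proteins are secreted and hold IGF1 and IGF2 outside the cell, which limits or prolongs the access of these ligands to the IGF1 receptor. IGFBP3 is the main IGF carrier of the circulation and also has actions that do not need IGF. IGFBP7 binds IGF weakly and is known as a secreted suppressor of BRAF-driven growth in melanocytes and melanoma cells. Proteases such as pappalysins cut binding proteins and release the ligand, and the receptor signals through IRS adaptors and PI3 kinase.

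The table holds only features that differ between these groups: no feature had a log2 ratio of its group means between -1.07 and 0.92. Column totals were 1688254, 1533260 and 1897052 counts in CYGB-OE replicates 1 to 3, and 2025159, 2801576 and 2078819 in WT replicates 1 to 3. These are sums over the selected features, not library depths. Normalized counts are counts divided by scaling factors computed within each group, with the middle of this empty band set to a log2 ratio of 0. By edgeR's quasi-likelihood test at an adjusted p of 0.05, 697 of the 2465 features that could be tested (28.3%) passed with a higher level in CYGB-OE and 1762 (71.5%) with a lower one. With TMM scaling over the whole table, which adds 1.20 to the log2 fold changes, 745 were higher and 465 lower. CYGB itself, the check of the labels, had 24020, 23160 and 23870 normalized counts in CYGB-OE and 36.3, 37.2 and 39.3 in WT. CYGB-OE replicate 1 stood apart from its group: the median absolute log2 difference was 0.46 to replicate 2 and 0.47 to replicate 3, against 0.21 between those 2 and 0.18 to 0.19 among the WT libraries.

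IGFBP3 (ENSG00000146674) lies on the minus strand of chromosome 7 (GRCh38, 45912245 to 45921874), and IGFBP7 (ENSG00000163453) on the minus strand of chromosome 4 (57030773 to 57110385). The 248 bases upstream of its main start are shown for IGFBP3, the more variable of the 2 genes, without the 2 bases nearest to the RefSeq start, which GENCODE places in an exon. Another annotated transcript begins further upstream. The sequence comes from RefSeq (GRCh38.p14, chr7:45921275-45921522, minus strand), and capitals mark a TATATA motif and a GGGCGG motif read on the opposite strand.
IGFBP3: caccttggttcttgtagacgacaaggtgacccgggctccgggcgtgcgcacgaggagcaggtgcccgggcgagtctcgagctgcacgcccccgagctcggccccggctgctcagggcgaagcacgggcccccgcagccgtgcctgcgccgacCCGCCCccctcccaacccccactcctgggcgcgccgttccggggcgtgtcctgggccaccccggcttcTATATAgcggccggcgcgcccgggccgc
The TATATA match began 30 bases before the RefSeq start, and 3.73% of 35116 human promoter windows of 250 bases hold this motif on either strand. The GGGCGG motif, the core of a GC box, occurred at 98 and at 6 bases before the start, the second partly beyond the printed stretch, and 42.6% of the windows hold it. No match was found for TATAAA, for TGANTCA (the core of an AP-1 site) or for a form of the NF-kB site. These occur in 10.7%, 6.57% and 22.6% of the windows on either strand. The NF-kB form searched allows only A after its opening run of G. Forms with G at that base were not searched, so their absence is not shown. The stretch is 75.8% G and C, against a median of 58% over all windows. The IGFBP7 promoter was not analysed here.

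IGFBP7 was uniformly low in CYGB-OE. It had 232, 233 and 300 raw counts in CYGB-OE replicates 1 to 3, and 1473, 2038 and 1503 in WT replicates 1 to 3. The normalized counts were 247.5, 260.2 and 272.6 in CYGB-OE and 1620, 1611 and 1597 in WT. Both groups were tight and far apart, with means of 260 ± 12.6 in CYGB-OE and 1609 ± 11.3 in WT (SD, n = 3 each). The CYGB-OE mean was 16.2% of the WT mean, and the log2 fold change was -2.63 (SE 0.10). Single CYGB-OE libraries ranged from 15.4% to 16.9% of the WT mean. Leaving out any 1 library kept the log2 fold change between -2.66 and -2.59. Of the 2465 features tested, 233 had a lower log2 fold change. With TMM over the whole table the log2 fold change was -1.43. In bulk RNA such as this, fewer expressing cells and less RNA per cell cannot be told apart.

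With the empty band as the level between groups, IGFBP3 was also lower in every CYGB-OE library, but by an amount that differed between them. Its raw counts were 3160, 645 and 831 in CYGB-OE replicates 1 to 3, and 5881, 9280 and 5974 in WT replicates 1 to 3. The normalized counts were 3371, 720 and 755 in CYGB-OE and 6468, 7334 and 6349 in WT. Replicates 2 and 3 of CYGB-OE lay at 10.7% and 11.2% of the WT mean, while replicate 1 lay at 50.2%, between its own group and WT. The means were 1615 ± 1520 in CYGB-OE and 6717 ± 538 in WT (SD, n = 3 each), and the log2 fold change was -2.06 (SE 0.66). Without CYGB-OE replicate 1 it was -3.19, below that of IGFBP7. Leaving out another library gave -2.10 to -1.70, and TMM over the whole table gave -0.85. With the empty band as the level, every CYGB-OE library lay below every WT library for both genes, as for 71.2% of the features tested. Levels of IGFBP3 in single libraries were not computed under TMM over the table, which adds 1.20 to the log2 fold changes. Whether CYGB-OE replicate 1 lies below WT may therefore depend on the scaling.

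**Figure D1:**
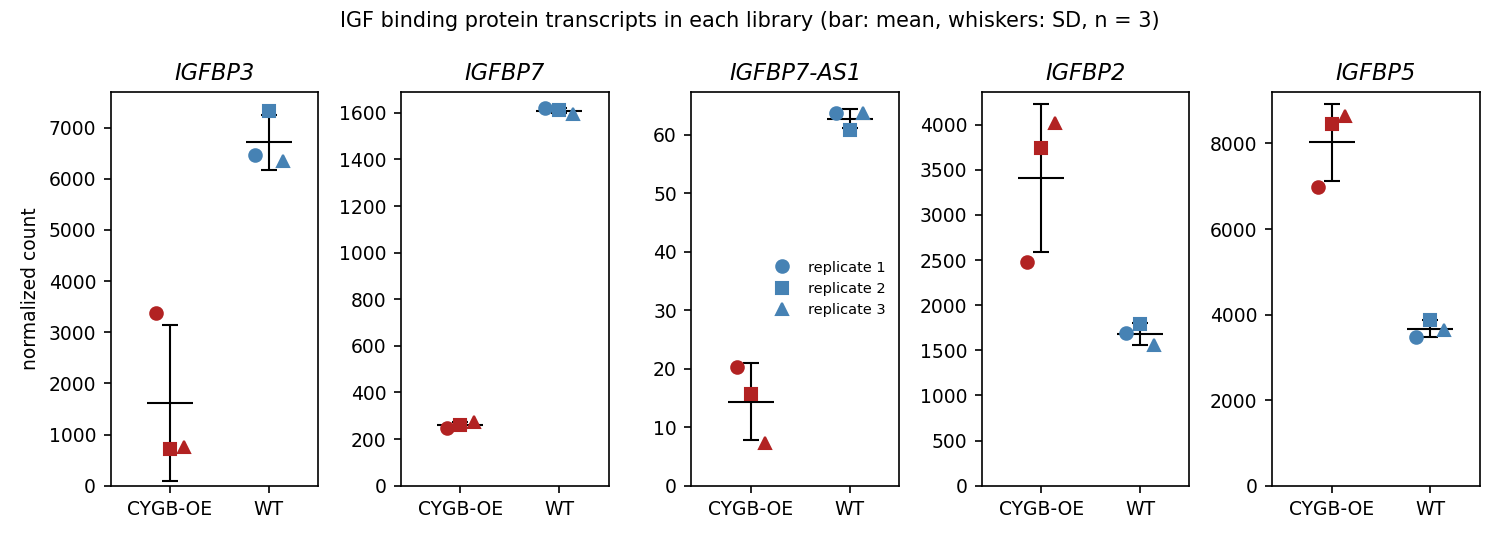
Normalized count (y axis, linear, a separate scale for each gene) of 5 transcripts of the IGF binding protein family in CYGB-OE and WT libraries; points are libraries, horizontal bars means and whiskers SD (n = 3 each). IGFBP7 is near 260 in all CYGB-OE libraries and near 1609 in WT, IGFBP3 is 3371 in CYGB-OE replicate 1 but 720 and 755 in replicates 2 and 3, and IGFBP2 and IGFBP5 are higher in CYGB-OE.

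The coefficient of variation over the CYGB-OE libraries was 94.1% for IGFBP3 and 4.84% for IGFBP7, against 8.01% and 0.702% over the WT libraries. IGFBP3 in CYGB-OE replicate 1 was 4.57 times the mean of replicates 2 and 3, and IGFBP7 was 0.929 times theirs. On the log2 scale the IGFBP3 excess of 2.19 was larger than that of 1725 of the 1767 features with a negative log2 fold change. The median of these features was -0.09, and IGFBP7 at -0.11 lay close to it. Among the 259 of them with a WT mean of at least 1000 normalized counts, 7 had a larger excess than IGFBP3. These were CXCL2, IL1B, NKILA, ELF3, IL1A, MIR3142HG and C3, which include 2 interleukin 1 genes, a chemokine and a complement component, and they were named after their values were seen. CYGB, at 24020 normalized counts in replicate 1, did not share this spread: replicate 1 was 1.02 times the mean of the other 2.

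**Figure D2:**
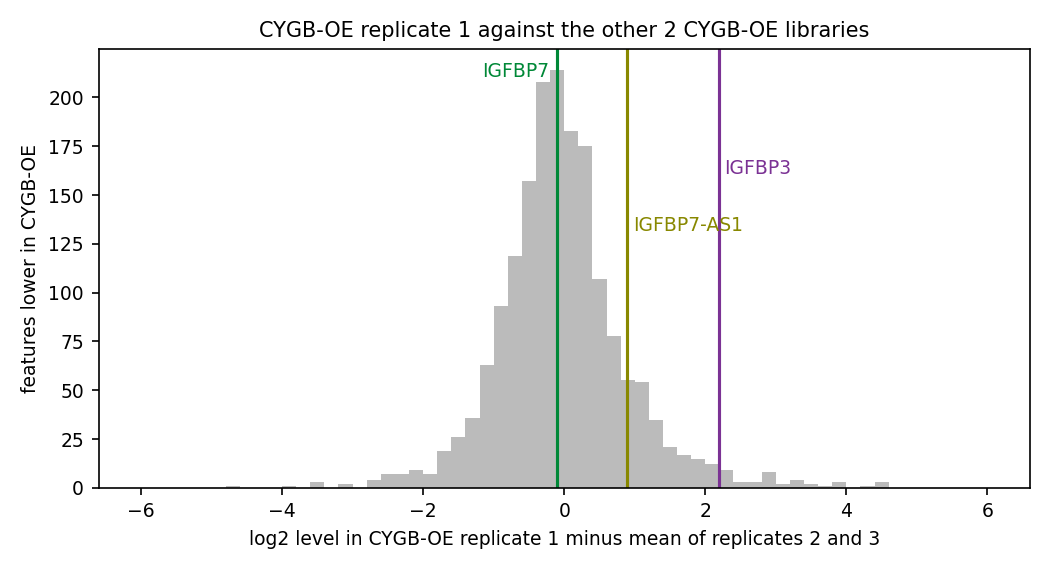
Histogram of the log2 level in CYGB-OE replicate 1 minus the mean log2 level in replicates 2 and 3 (x axis) for the 1767 features lower in CYGB-OE (y axis, number of features); vertical lines mark IGFBP3 at 2.19, IGFBP7-AS1 at 0.89 and IGFBP7 at -0.11. IGFBP3 lies in the right tail and IGFBP7 near the middle.

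Within a library the ratio of IGFBP3 to IGFBP7 does not depend on scaling between libraries. Per length of annotated exon (4571 and 1930 bases), IGFBP3 was 5.74, 1.17 and 1.17 times as abundant as IGFBP7 in CYGB-OE replicates 1 to 3, and 1.68, 1.92 and 1.68 times in WT replicates 1 to 3. The WT ratios thus lay between those of CYGB-OE replicate 1 and the other 2 CYGB-OE libraries. The size of the ratios rests on the lengths used, which join the exons of all annotated transcripts, but their order among libraries does not. Across the 6 libraries the 2 genes shared a lower level in CYGB-OE but not its size.

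IGFBP7 is overlapped at its start by the antisense gene IGFBP7-AS1 (ENSG00000245067), which runs the other way on the plus strand of chromosome 4 (57109762 to 57205510). This gene was singled out after its values were seen. Its annotated start lies 623 bases inside IGFBP7, in the first intron, and its first exon overlaps exon 1 of IGFBP7 by 94 bases, all in the coding sequence. The overlap is shown because reads of either gene can come from it (GENCODE release 29, GRCh38 chr4:57109877-57109970, minus strand).
IGFBP7 exon 1: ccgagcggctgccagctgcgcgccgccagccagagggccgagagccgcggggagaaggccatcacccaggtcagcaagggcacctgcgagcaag
IGFBP7-AS1 had 20.3, 15.6 and 7.27 normalized counts in CYGB-OE and 63.8, 60.9 and 63.8 in WT. It was lower in CYGB-OE by 2.14 on the log2 scale (SE 0.35), and no p-value is given because it was singled out on its values. Under TMM over the table it was not called, at a log2 fold change of -0.94. Its counts were 8.19%, 6.01% and 2.67% of those of IGFBP7 in CYGB-OE replicates 1 to 3, and 3.94%, 3.78% and 3.99% in WT. The shared bases make up 4.87% of the IGFBP7 exons and 5.40% of those of IGFBP7-AS1. The sources used here do not say whether the counting used strand, so reads of the 2 genes in this stretch cannot be told apart. At its other end IGFBP7 shares 270 exon bases, 14% of its total, with the protein-coding gene POLR2B on the opposite strand. POLR2B was not among the selected features. The annotation places no gene over IGFBP3.

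**Figure D3:**
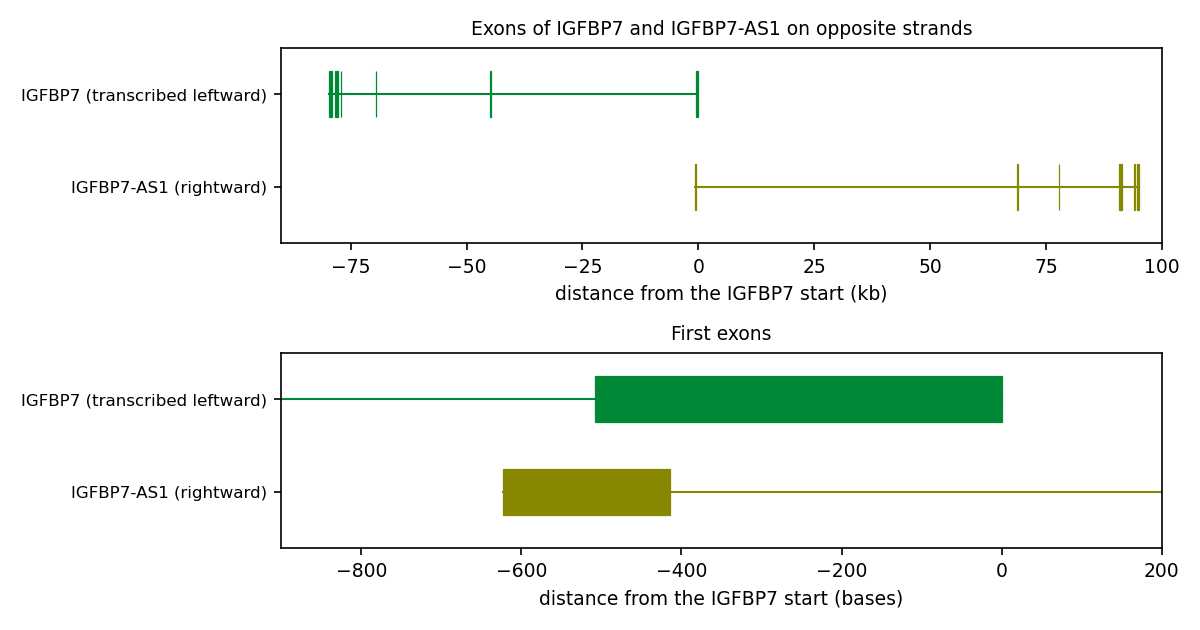
Annotated exons (boxes) of IGFBP7 and IGFBP7-AS1 against the distance from the IGFBP7 start along chromosome 4, in kb (upper panel) and in bases around the first exons (lower panel). The first exons overlap by 94 bases, and all other exons of the 2 genes lie on opposite sides.

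Apart from IGFBP3, the classical binding proteins in the table were IGFBP5 and IGFBP2, and both moved opposite to IGFBP3 and IGFBP7. IGFBP5, which binds IGF and is held in the extracellular matrix, had 6991, 8459 and 8633 normalized counts in CYGB-OE and 3476, 3881 and 3645 in WT. It rose by 1.13 on the log2 scale (SE 0.11, edgeR adjusted p = 2.35e-05). IGFBP2, a binding protein with a preference for IGF2, had 2480, 3739 and 4013 in CYGB-OE and 1691, 1793 and 1554 in WT. It rose too, by 1.02 on the log2 scale (SE 0.17, edgeR adjusted p = 0.000518). Both p-values come from a table of features that differ between these libraries, so they are not independent evidence. Neither gene had overlapping groups, CYGB-OE lying above WT as for 27.6% of the features tested, and CYGB-OE replicate 1 was the lowest of its group. The 2 genes are neighbours on chromosome 2, IGFBP2 on the plus strand (216632828 to 216664436) and IGFBP5 on the minus strand (216672105 to 216695525). IGFBP1, IGFBP4 and IGFBP6 were not among the selected features.

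Per kb of exon, the 4 binding proteins summed to 2450 ± 52.7 normalized counts in CYGB-OE and 3225 ± 168 in WT (SD, n = 3 each). IGFBP3 and IGFBP7 together made up 35%, 12.2% and 12.3% of that sum in CYGB-OE replicates 1 to 3, and 71.6%, 71.4% and 71.3% in WT. The direction of the difference in the sum depended on the scaling: in a comparison added after the data were seen, TMM over the table gave 3713 ± 87.5 in CYGB-OE and 2129 ± 138 in WT, and DESeq2 size factors and upper-quartile factors also put CYGB-OE higher, while total counts gave 2761 ± 71.3 in CYGB-OE and 2862 ± 151 in WT. The shares of the sum do not change with scaling. In CYGB-OE IGFBP5 came first with 1246 ± 140 normalized counts per kb, followed by IGFBP2 with 716 ± 172, IGFBP3 with 353 ± 333 and IGFBP7 with 135 ± 6.52 (SD, n = 3 each). In WT the order was IGFBP3 with 1470 ± 118, then IGFBP7 with 834 ± 5.86, IGFBP5 with 569 ± 31.6 and IGFBP2 with 352 ± 25.2. The lengths join the exons of all annotated transcripts of a gene, 11 for IGFBP3, 5 for IGFBP2 and 3 each for IGFBP5 and IGFBP7. Which transcripts these cells express was not determined, and they may be shorter. The order of the genes, the sum and the shares therefore depend on this choice of length. In CYGB-OE the libraries of IGFBP3 and IGFBP2 overlapped, with IGFBP3 at 737 in replicate 1, above IGFBP2 at 520 there, while in WT no neighbours in the order overlapped. In CYGB-OE replicate 1 IGFBP3 held 29.8% of the sum, against 6.59% and 6.64% in CYGB-OE replicates 2 and 3. IGFBP7 held 5.19%, 5.64% and 5.68% in the 3 CYGB-OE libraries, and 26.7%, 24.4% and 26.6% in the WT libraries.

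**Figure D4:**
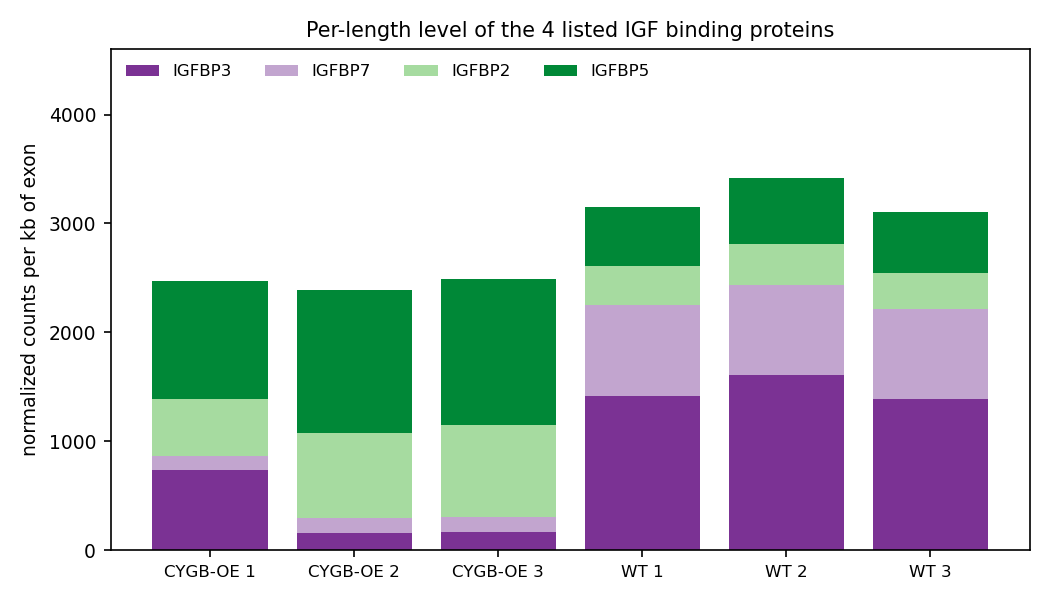
Stacked bars of the normalized counts per kb of annotated exon (y axis) of IGFBP3, IGFBP7, IGFBP2 and IGFBP5 in each CYGB-OE and WT library. IGFBP3 and IGFBP7 fill 35% of the bar of CYGB-OE replicate 1, 12.2% and 12.3% of those of the other 2 CYGB-OE libraries, and 71.3% to 71.6% of each WT bar.

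Among proteins that carry an IGFBP domain outside the classical family, 4 more were in the table. With IGFBP2 and IGFBP5, 6 of the 18 genes on this list were tested (median log2 fold change 1.08, against -1.30 over all features tested). Of these 5 rose and 1 fell, beside 28.3% and 71.5% of all features tested. Without CYGB-OE replicate 1, or adjusted over all annotated genes, 3 were called higher. ESM1, an endothelial-type secreted proteoglycan, fell to 209, 82.6 and 74.5 normalized counts in CYGB-OE, against 530, 654 and 621 in WT (log2 fold change -2.30; -2.94 without CYGB-OE replicate 1). As in IGFBP3, its CYGB-OE replicate 1 was the highest of the group. The matricellular proteins NOV, CTGF and CYR61 rose, with log2 fold changes of 1.51, 1.20 and 1.02. CTGF and CYR61 had 1068 to 1167 and 2076 to 2887 normalized counts in CYGB-OE. Their WT levels were uneven, at 808 and 2045 normalized counts in WT replicate 2 against 304 to 356 and 830 to 918 in WT replicates 1 and 3. CTGF lost its call without CYGB-OE replicate 1 (edgeR adjusted p = 0.0989), and CYR61 lost it without any 1 of the 6 libraries except WT replicate 2, without which its log2 fold change was 1.56.

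None of the 8 listed IGF ligands, receptors and carrier subunits were in the table, so no statement on IGF1, IGF2 or the IGF1 receptor can be drawn from it. Over all 180 genes on the lists of the IGF system and related pathways, the table held 30, and 29 could be tested. Among these, 13 rose (44.8%) and 16 fell (55.2%), beside 28.3% and 71.5% of all features tested, with a median log2 fold change of -1.09. Of all features tested 99.8% were called, so these counts give the direction among genes that all differ and add no evidence of change. With TMM over the whole table, 14 passed as higher and 1 as lower, ESM1, so no other gene of these lists given as fallen keeps that call under this scaling. Adjustment over all 58780 annotated genes left 9 higher and 10 lower.

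Of 26 listed genes for proteases of the binding proteins and their inhibitors, 7 were tested. Among these 3 rose and 4 fell, beside 28.3% higher and 71.5% lower among all features tested. The pappalysins PAPPA, which cuts IGFBP4 and IGFBP5, and PAPPA2, which cuts IGFBP3 and IGFBP5, fell, with log2 fold changes of -1.35 and -2.33. PAPPA2 was scarce, at 2.13, 6.70 and 0.91 normalized counts in CYGB-OE and 12.1, 15.8 and 20.2 in WT, and its log2 fold change was -3.34 without CYGB-OE replicate 2. STC1, a stanniocalcin that inhibits PAPPA, rose to 1957, 779 and 737 normalized counts in CYGB-OE, against 463, 551 and 528 in WT (log2 fold change 1.17, or 0.56 without CYGB-OE replicate 1). MMP1, a collagenase also able to cut IGFBP3, rose with a log2 fold change of 4.36. MMP3, a stromelysin, had 108, 175 and 178 normalized counts in CYGB-OE and 1.1, 3.16 and 0 in WT. MMP19 and the complement protease C1S fell, with log2 fold changes of -1.10 and -2.19 (-3.23 for C1S without CYGB-OE replicate 1). MMP19 turned to 0.10 under TMM over the table.

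Of 31 genes of IGF signal transduction, 4 were tested, of which 2 rose and 2 fell, beside 28.3% and 71.5% of all features tested. IRS1, the adaptor that docks to the active receptor, rose to 1712, 1140 and 1135 normalized counts in CYGB-OE, against 390, 502 and 418 in WT. The rise was 1.60 on the log2 scale (SE 0.19, edgeR adjusted p = 6.5e-05). As the table holds only features that differ, this p-value is not independent evidence. PIK3R3, a regulatory subunit of PI3 kinase, rose with a log2 fold change of 1.09. GRB14, an adaptor that restrains the insulin receptor, and FOXO3, a transcription factor inhibited by AKT, fell with log2 fold changes of -1.49 and -1.09. FOXO3 turned to 0.11 under TMM over the table.

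Because IGFBP7 is known for restraining BRAF signalling, genes of the ERK pathway were listed. Of 31, 2 were tested, beside 28.3% higher and 71.5% lower among all features tested. EPHA4, an ephrin receptor, rose (log2 fold change 1.70) and PHLDA1 fell (-1.10, or 0.10 under TMM over the table). Of 13 reported partners of IGFBP3 and IGFBP7, not all of them on the cell surface, TFRC, the transferrin receptor, rose (log2 fold change 1.46). LRP1 (-1.10, or 0.10 under TMM over the table) and CD93 (-2.08) fell, with the same shares over all features beside them. CD93, a receptor for IGFBP7 on endothelial cells, was scarce, at 2.13, 4.47 and 3.63 normalized counts in CYGB-OE and 13.2, 14.2 and 17.0 in WT.

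Genes of pathways reported to regulate IGFBP3 were few in the table. Of 22 genes of TGF-beta signalling, 3 were tested and all 3 fell, beside 71.5% of all features tested: INHBA, an activin subunit (log2 fold change -2.37, or -3.13 without CYGB-OE replicate 1), SMAD3 (-1.21, or 0.0054 with DESeq2 size factors over the table) and BAMBI (-1.0, or 0.20 under TMM over the table). All 3 calls were lost under TMM over the table, INHBA having a log2 fold change of -1.17 (edgeR adjusted p = 0.0789). Adjusted over all annotated genes, 1 of the 3 was called. Of 12 retinoid and vitamin D genes, 2 were tested and both fell, beside 71.5% of all features tested. These were the transglutaminase TGM2 (-1.62) and the retinol receptor STRA6 (-1.55, or -2.19 without CYGB-OE replicate 1). Both calls were lost under TMM over the table, at -0.42 for TGM2 and -0.35 for STRA6 (edgeR adjusted p = 0.0848 and 0.541). Of 20 p53 target genes, 2 were tested, beside 28.3% higher and 71.5% lower among all features tested. The exonuclease AEN rose (1.64) and BBC3, which encodes the BH3 protein PUMA, fell (-1.50).

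**Figure D5:**
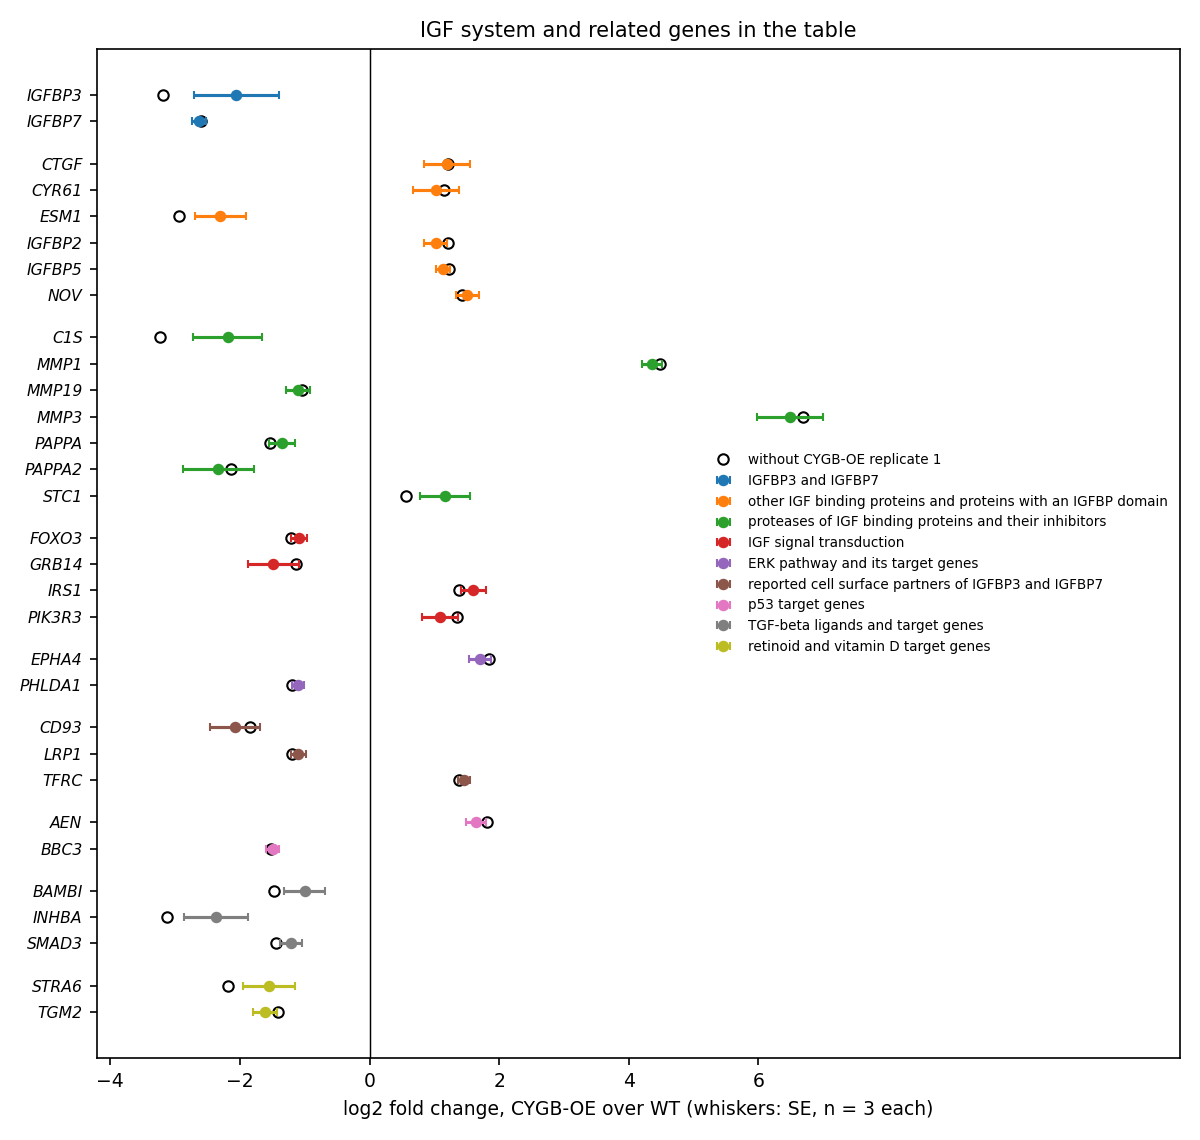
Log2 fold change of CYGB-OE over WT (x axis; filled points, whiskers SE, n = 3 each) for IGFBP3, IGFBP7 and the tested genes of the pathway lists, coloured by list; open circles are the values without CYGB-OE replicate 1. IGFBP3 moves to -3.19 without that library while IGFBP7 stays at -2.59, and IGFBP2 and IGFBP5 lie above 0.

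The features with the profiles nearest to each gene over the 6 libraries were different for the 2 genes. Likeness was the mean absolute difference of log2 levels, each centred on its own mean, among 1064 other named features with a mean of at least 100 normalized counts. For IGFBP3 the nearest were CD82 (0.12), ZC3H12A (0.13), RELB (0.13), INHBA (0.16) and IRAK2 (0.18). CD82 is a tetraspanin, ZC3H12A an RNase that degrades cytokine mRNAs, RELB an NF-kB subunit and IRAK2 a kinase of interleukin 1 receptor signalling. RELB had 1347, 363 and 394 normalized counts in CYGB-OE replicates 1 to 3 and 3709, 3557 and 3599 in WT. All 5 had their highest CYGB-OE level in replicate 1. Without replicate 1 their log2 fold changes, -2.52 to -1.98 with all libraries, were -3.44 to -2.90. Both traits follow largely from the choice of these features by likeness to IGFBP3 over the same libraries. For IGFBP7 the nearest were GBP2 (0.08), WIPI1 (0.09), PLD1 (0.11), SLC24A3 (0.13) and RASAL1 (0.13). GBP2 is an interferon-induced GTPase, WIPI1 acts in autophagosome formation, PLD1 is a phospholipase, SLC24A3 a sodium-calcium exchanger and RASAL1 a Ras GTPase-activating protein. WIPI1 had 418, 412 and 468 normalized counts in CYGB-OE and 2355, 2388 and 2356 in WT. Such nearness follows in part from the shared difference between the groups.

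Markers of melanocytes and of other cell types were set beside these levels. Of 16 melanocyte markers 5 were in the table. Their summed level was 2832 to 3317 normalized counts in CYGB-OE and 6825 to 7466 in WT. The largest part of this sum was S100A1, with means of 2021 in CYGB-OE and 4361 in WT. All 4 tested fell, beside 71.5% of all features tested. All 4 calls were lost under TMM over the table: TYRP1, EDNRB and RAB38 had log2 fold changes of -1.35, -0.30 and -0.22, and S100A1 turned to 0.0897 (edgeR adjusted p of 0.0557 to 0.552). DCT, a melanin enzyme, had 0 counts in all 3 CYGB-OE libraries and 2.2, 10.3 and 15.9 normalized counts in WT. Of 11 endothelial markers, KDR and TIE1 were in the table, summing to 16.8 to 34.1 in CYGB-OE and 166 to 191 in WT. Of 12 fibroblast markers, COL1A2 and COL3A1 summed to 38.4 to 193 in CYGB-OE and 1.1 to 3.95 in WT, with COL1A2 at 0 in WT replicate 1 and COL3A1 at 0 in WT replicate 3. Of 10 keratinocyte markers, KRT14 and DSC3 summed to 211 to 360 in CYGB-OE and 447.6 to 503.8 in WT, KRT14 being higher and DSC3 lower in CYGB-OE (DSC3 0.0738 under TMM over the table), and of 12 blood cell markers LYZ had 223 to 341 in CYGB-OE and 43.6 to 55.3 in WT. The marker sums were not computed under TMM over the table, which adds 1.20 to the log2 fold changes. Under that scaling both keratinocyte markers had log2 fold changes above 0, KRT14 at 3.07 and DSC3 at 0.0738, though DSC3 was not called. The lower keratinocyte sum in CYGB-OE therefore rests on the scaling used, and the direction of the melanocyte sum may depend on it too. The part of these markers in the levels of IGFBP3 and IGFBP7 was not tested.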

How the data were processed

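RNA-seq libraries of A375 cells, 3 CYGB-OE and 3 WT, were grouped by their titles. Per the submitters' processing notes, Trimmomatic 0.36, STAR 2.5.2b, featureCounts and Subread 1.5.2 were used with GRCh38. The authors deposited raw counts per feature for 2778 features, 163 of them unnamed loci; their selection rule, annotation and strand setting were not given in the sources used here. Of 2615 Ensembl identifiers, 2611 were found in GENCODE release 29, which gave positions and exon lengths, joined over all annotated transcripts of a gene.

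Counts were tested with edgeR 4.0.16 (R 4.3.3; quasi-likelihood, two-sided, filterByExpr with minimum count 10, robust, group as the only term), Benjamini-Hochberg adjusted over 2465 features. TMM factors were computed inside each group, and groups were put on one level at the middle of the empty band, since TMM over selected features assumes most are unchanged. SE was derived from the F statistic. With a library left out, the level was kept from all 6 libraries, because the band of width 1.99 narrowed to 0.47 to 1.46. Alternatives used DESeq2 1.42.0 and limma 3.58.1. Log2 levels used a prior count of 0.5.

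The genes, lists and tests were chosen with earlier results of these data known. Named genes were the listed genes in the table (at most 8 per list) and the 5 nearest profiles of each gene, apart from those said to be singled out. The table holds only features that differ between these libraries, so calls are not independent evidence.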

Additional observations from a re-analysis of the deposited data

How the results depend on the processing

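The log2 fold changes of IGFBP3 and IGFBP7 stayed negative under every alternative run. The scaling between groups set the size: log2 fold changes of IGFBP3 and IGFBP7 were -0.85 and -1.43 with TMM over the table and -0.83 and -1.42 with DESeq2 size factors. IGFBP7 had -1.76 with upper-quartile factors and -2.28 with total counts. Leaving out 1 library gave -3.19 to -1.70 for IGFBP3. Features lower in CYGB-OE numbered 465, 462 and 887 with TMM, DESeq2 size factors and upper-quartile factors, and lower pathway genes 1, 0 and 4, or 10 adjusted over all annotated genes. Beside that 0 by edgeR, 4 passed as lower at an unadjusted p of 0.05, and the DESeq2 test with scaling by the empty band called 16. With TMM and DESeq2 size factors 7 and 8 other named genes turned positive: MMP19 (0.10 and 0.10), FOXO3 (0.11 and 0.12), PHLDA1 (0.10 and 0.11), LRP1 (0.10 and 0.11), BAMBI (0.20 and 0.21), S100A1 (0.0897 and 0.0981), DSC3 (0.0738 and 0.0852), and SMAD3 with the size factors (0.0054). These scalings raise all log2 fold changes by construction.

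With replicate number as a block, log2 fold changes were -2.48 for IGFBP3 and -2.63 for IGFBP7, with 696 features higher and 1763 lower. Same-numbered libraries deviated with correlations of -0.01, -0.07 and 0.01, so no pairing by number was seen. Such correlations over all features cannot exclude a small effect shared by libraries of the same number. Adjusted over all annotated genes, 15 of 50 other named genes lost their calls, among them CTGF, CYR61, STC1 and INHBA. Column totals are not depths, so the limit that depth sets is unknown.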

Other observations

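The protein-coding neighbours of IGFBP3 and IGFBP7 were not among the selected features. Within 500 kb, GENCODE places 3 protein-coding genes around IGFBP3, among them IGFBP1 at a gap of 18.6 kb, and 6 around IGFBP7. Of either set 0 were in the table. The table held 2611 of the 58780 annotated genes, so the absence of these few neighbours is not particular to either locus. The 250 bases before the RefSeq starts of the binding proteins that rose were searched too. IGFBP2 held 1 GGGCGG match, 86 bases before the start. IGFBP5 held 2 matches to the NF-kB form with A after the run of G. The window before IGFBP7-AS1, which lies in the first intron of IGFBP7, held no match to any of the 5 motifs searched.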
